A study of Mus musculus with 2 samples.

Results

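Elf3, Ehf, Elf5 and Spdef are the ETS transcription factor genes of the mouse that are known for their expression in epithelia. They were examined here as 4 of 21911 protein-coding genes, each as a locus made of the gene body and 10 kb on either side (GENCODE M21, build mm10). The rule takes the loci by gene name and uses no measured value, though earlier results of these data were known when the genes were picked. Together they held 37 of 139374 peaks of replicate 1, 32 of 152779 peaks of replicate 2 and 26 of 105606 regions found in both, counting a region as shared when a peak of each replicate overlapped by at least 1 bp. The tissue was stomach of B6NCrl mice on postnatal day 0, with no treatment named. Open chromatin was read by DNase-seq, in which DNase I cuts accessible DNA and the cut ends are sequenced. There was 1 group of 2 biological replicates with 1 library each, so no groups could be compared and no test was run. The libraries come from 2 biosamples with the same donor label, and whether animals were pooled is not stated, so the spread between them may be partly technical. The labels name sequencer models for replicate 2 and none for replicate 1.

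ETS factors share a DNA-binding domain that reads a GGAA or GGAT core. Elf3 (also ESE1), Elf5 (ESE2) and Ehf (ESE3) form the epithelial ESE group. Elf3 is known for its role in the differentiation of gut epithelium, Ehf is found in simple and stratified epithelia, and Elf5 is best known from mammary alveoli and trophoblast. Spdef prefers the GGAT core and is known for the maturation of goblet cells and of mucous cells of the gastric antrum. The stomach of the newborn mouse is a mixed organ with a glandular and a squamous epithelium over muscle, mesenchyme, vessels and nerves. A weaker site can therefore stem from fewer cells with open chromatin or from less accessible chromatin per cell, and these cannot be told apart in whole tissue.

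The tissue label was checked against marker genes. Of the markers listed for this check, a shared region lay within 1 kb of an annotated start at 10 of 10 genes of gastric epithelium, 3 of 5 of the squamous forestomach, 5 of 5 of visceral smooth muscle, 4 of 5 of mesenchyme, 2 of 5 of endothelium, 2 of 5 of immune cells and 1 of 5 of enteric neurons and glia. The share over all protein-coding genes was 66.4%, so the counts for squamous, endothelial, immune and enteric markers were below it and say little about those cells. With 5 genes in a list, the 5 of 5 of smooth muscle and 4 of 5 of mesenchyme are not far above that share and say little either. The gastric list holds Cdh1 and Epcam, which are also in the list of general epithelial genes used below, so the check is a weak one. The markers without a shared region within 1 kb of a start included Trp63, the regulator of squamous basal cells. Barx1, a regulator of stomach mesenchyme, and Sox10 of enteric glia were others. Elsewhere in their loci, Trp63 had 5 shared regions and Barx1 and Sox10 had 3 each. Barx1 had a promoter peak in replicate 1 alone, and Trp63 and Sox10 had none in either replicate. The peak signal deposited with each list is a number with no stated unit or depth scaling. It was used to rank peaks within a list, with a median of 44 in replicate 1 and 52 in replicate 2, and percentiles below are ranks within the replicate's own list. Hotspots are stretches of raised cutting, in these loci 70 to 1290 bp wide and so at times narrower than a peak. Each carries a −log10 q that stops at 100. This limit was reached by 38.9% of hotspots in replicate 1 and 39.4% in replicate 2, so reaching it does not single a site out. The number of reads is not given, so the depth is unknown.

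All 4 genes were accessible at an annotated start in both libraries, and for Elf3, Elf5 and Spdef the DNA just upstream of those starts is shown first because the results turn on these sites. Each line gives the part of a shared region outside annotated UTRs, on the coding strand and up to the base before the start, with matches to the searched motifs in capitals. The one match is an ETS string in Spdef, and the Elf3 and Elf5 lines hold none.

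Elf3 promoter, chr1:135258569-135258685, minus strand: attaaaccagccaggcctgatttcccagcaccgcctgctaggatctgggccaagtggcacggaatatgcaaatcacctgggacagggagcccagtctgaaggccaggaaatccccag

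Elf5 internal promoter, upstream site, chr2:103424016-103424061, plus strand: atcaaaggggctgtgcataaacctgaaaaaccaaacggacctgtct

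Elf5 internal promoter, downstream site, chr2:103424736-103424827, plus strand: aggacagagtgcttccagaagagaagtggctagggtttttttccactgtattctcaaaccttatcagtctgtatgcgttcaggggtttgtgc

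Spdef promoter, chr17:27728956-27729085, minus strand: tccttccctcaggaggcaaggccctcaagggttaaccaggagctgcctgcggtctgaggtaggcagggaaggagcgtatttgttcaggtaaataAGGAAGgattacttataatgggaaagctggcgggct

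The strongest other shared region of each locus is shown for comparison, whole and on the coding strand of the ETS gene. The Elf3 example lies in an exon of the antisense transcript Gm26642 and inside Rnpep, an aminopeptidase gene. The Elf5 example lies in a coding exon of the neighbouring catalase gene Cat, so it need not belong to Elf5. Capitals mark a KLF and then an AP-1 string in the Elf3 region, and an ETS and then a forkhead string in the Ehf region.

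Elf3 upstream region, chr1:135265896-135266045, minus strand: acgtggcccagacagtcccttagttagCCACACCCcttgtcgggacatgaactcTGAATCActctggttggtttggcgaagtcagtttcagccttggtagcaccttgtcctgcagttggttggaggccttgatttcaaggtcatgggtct

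Ehf intronic region, chr2:103285636-103285805, minus strand: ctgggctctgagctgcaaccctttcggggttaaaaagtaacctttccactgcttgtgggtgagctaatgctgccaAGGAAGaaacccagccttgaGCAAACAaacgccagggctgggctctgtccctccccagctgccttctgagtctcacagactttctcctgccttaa

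Elf5 downstream region in Cat, chr2:103456796-103456945, plus strand: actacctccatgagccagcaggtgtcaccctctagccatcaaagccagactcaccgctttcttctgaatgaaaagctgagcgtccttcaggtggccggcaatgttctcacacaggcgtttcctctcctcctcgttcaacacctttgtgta

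Spdef upstream region, chr17:27734456-27734605, minus strand: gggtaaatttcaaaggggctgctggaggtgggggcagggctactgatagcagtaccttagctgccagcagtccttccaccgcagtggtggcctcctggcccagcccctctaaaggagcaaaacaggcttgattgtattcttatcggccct

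A shared region within 1 kb of an annotated start was present at 4 of 4 of these genes, against 66.4% of all protein-coding genes. Across their 24 annotated start sites, 16 had a shared region within 1 kb and 8 lay inside one. In replicate 1, 18 of the 24 had a peak within 1 kb, and in replicate 2, 16 had one. The 66.4% is a share of genes, and no share over all annotated starts is set beside these counts. They therefore describe the 4 genes only. Each of the 4 has 3 to 8 annotated starts, and the share over all genes was not matched for that number. The 2 start sites with a peak within 1 kb in replicate 1 alone both belonged to Ehf.

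The 4 genes differed in how their accessible sites were laid out. Elf3 and Spdef each had 8 shared regions, in loci of 25.0 and 34.6 kb, which is 3.20 and 2.31 per 10 kb. Ehf and Elf5 each had 5, in loci of 59.8 and 59.3 kb, or 0.84 per 10 kb. The median over all protein-coding loci was 0.79 per 10 kb, and 2.12% of loci were as dense as Elf3 or denser, 7.97% as Spdef, 47.7% as Ehf and 47.3% as Elf5. Among the 4186 loci within 10% of the length of Elf3 the median was 2 shared regions, and 6.52% had 8 or more. For Spdef the median over 2798 such loci was 4, and 12.7% had 8 or more. For Ehf and Elf5 the median over loci of like length was 5, the same as their own count. The contrast by count rests on the flanks: over gene bodies alone Elf3 had 2 shared regions, Spdef 4, Ehf 5 and Elf5 4, against a median of 4 over the 22 other ETS genes. These counts are not scaled to length, and Elf3 has the shortest gene body of the 4, so they do not bear on the contrast by density.

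**Figure D1:**
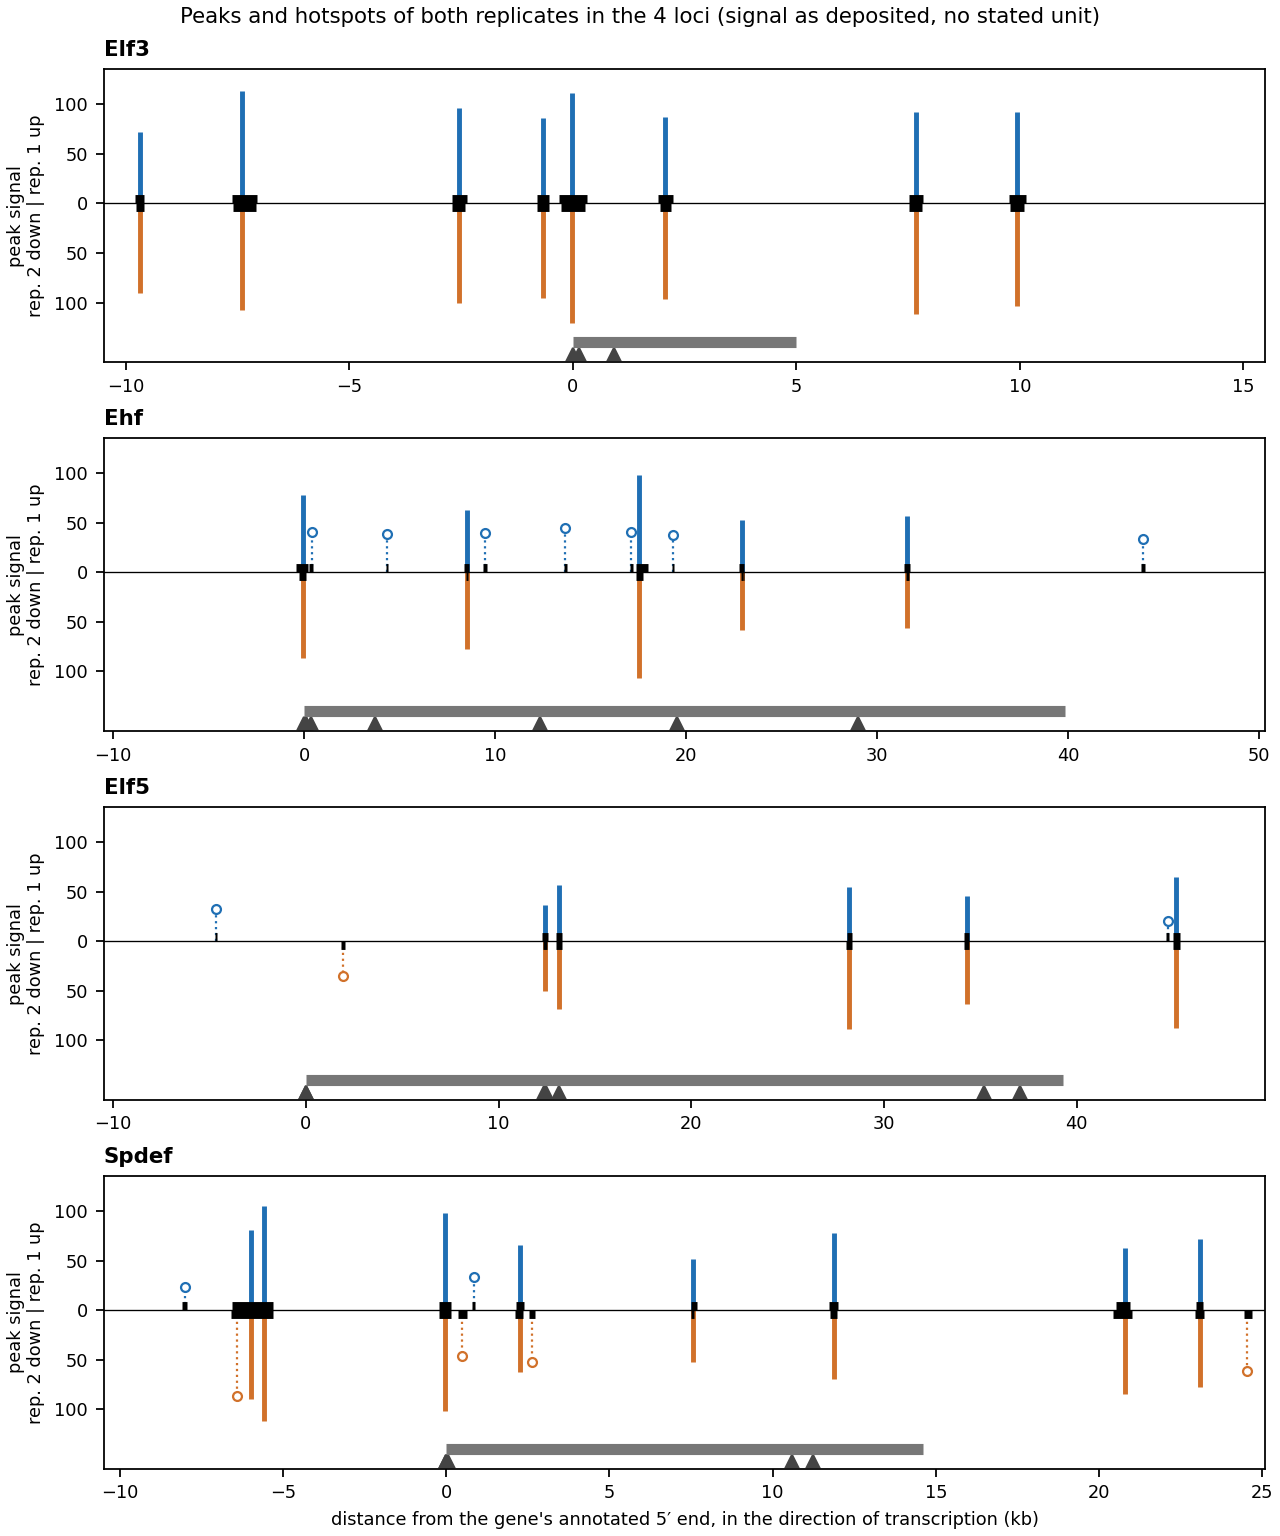
Peaks in the 4 loci by distance (kb) from each gene's annotated 5′ end, with deposited signal (no stated unit) of replicate 1 upward in blue and of replicate 2 downward in orange. Solid lines are shared regions, dotted lines with open circles are peaks of 1 replicate alone, black bars are hotspots, the grey bar is the gene and triangles are annotated starts. Elf3 has 8 sites and all are shared, Ehf has 7 peaks in replicate 1 alone, and the 5′ end of Elf5 has no shared site near it.

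Elf3 (chromosome 1, 135253575 to 135258568, minus strand) had 8 peaks in each replicate, and every peak had its partner. Its promoter region, centred 23 bp upstream of the start, had signals of 111 and 121 (replicate 1 and then replicate 2, here and for all pairs of values that follow), at percentiles 98.3 and 98.9. By signal, both libraries placed it among the strongest sites of their lists. Its hotspots, 626 and 534 bp wide, were at the limit of 100 in both, a limit that many hotspots reach. A further region 673 bp upstream had signals of 86 and 95. Inside the gene, a region in a coding exon 2.07 kb from the 5′ end had 87 and 96.

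The flanks of Elf3 held strong sites too. Upstream, a region at 2.54 kb, in an intron of the antisense gene Gm26642, had signals of 96 and 100, and the region at 7.40 kb shown above had 113 and 108, the highest of the locus in replicate 1. Downstream of the gene, regions at 7.68 and 9.94 kb from the 5′ end had 92 in replicate 1 each, and 112 and 104 in replicate 2. The weakest of the 8, at 9.69 kb upstream and within 1 kb of a start of Rnpep, had 72 and 90, at percentiles 83.0 and 88.3. All 8 thus ranked above the median of both lists. Gm26642 (135248561 to 135266443, plus strand) spans Elf3, and its own start lies inside the region at 9.94 kb. DNase cuts carry no strand, so these sites cannot be divided between Elf3, Gm26642 and Rnpep.

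Spdef (chromosome 17, 27714352 to 27728955, minus strand) had 10 peaks in replicate 1 and 12 in replicate 2, of which 8 in each list had a partner. Its promoter region, centred 46 bp upstream of the start, had signals of 98 and 102, at percentiles 95 and 93.8. The strongest site of the locus lay 5.58 kb upstream, with 105 and 112, both at percentile 97.0. Beside it, at 6.0 kb, a region had 81 and 90. Both sites fell in a hotspot of 1266 bp in replicate 1 and 1290 bp in replicate 2, wider than every other hotspot of the 4 loci. The noncoding gene Gm15458 starts within 1 kb of both.

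Inside Spdef there were 3 more shared regions. The intronic region at 2.24 kb from the 5′ end had 66 and 62, that at 7.56 kb had 52 and 52, and the region at 11.88 kb, within 1 kb of the start of a retained-intron transcript, had 78 and 69. Beyond its 3′ end, a region at 20.78 kb lay in an intron of Pacsin1, a gene of membrane trafficking, with 63 and 85. A region at 23.08 kb, near a start of Pacsin1, had 72 and 77. Peaks without a partner numbered 2 in replicate 1, with signals of 23 and 33, and 4 in replicate 2, with 46, 52, 61 and 87. The last of these, 6.42 kb upstream of Spdef, lay inside the wide upstream hotspot of replicate 1 although no peak was listed there.

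Ehf (chromosome 2, 103263433 to 103303278, minus strand) was the locus of the 4 with the widest gap in peak number between replicates. Its locus held 12 peaks in replicate 1 and 6 in replicate 2. All 6 peaks of replicate 2 had a partner, against 5 of 12 in replicate 1 (41.7%, 95% Wilson interval 19.3 to 68.0, counting error only). Over all peaks the shares were 77.6% in replicate 1 and 70.7% in replicate 2, so the direction was opposite to that of the whole lists. At least 6 more peaks in replicate 1 than in replicate 2 were found at 192 of 21911 loci, or 0.876%. The cut of 6 is the gap of Ehf itself. The share covers loci of every length, with a median of 37.4 kb against 59.8 kb for Ehf, and short loci with few peaks can hardly reach it. The 7 peaks of replicate 1 alone had signals of 33 to 45, at percentiles 28.8 to 52.5, and no hotspot of replicate 2 overlapped them. Each had a hotspot in replicate 1, with −log10 q of 1.83 to 3.12.

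The shared sites of Ehf were stronger than these. The promoter region, centred 63 bp upstream of the 5′ end, had signals of 78 and 86, at percentiles 86.7 and 85.9. The strongest site was intronic, 17.56 kb into the gene and 1961 bp upstream of an internal start, with 98 and 107 at percentiles 95 and 95.5. Other intronic regions had 63 and 77 at 8.51 kb, 53 and 58 at 22.94 kb, and 57 and 56 at 31.59 kb. At the last of these the hotspot values were 100 and 2.17, and the peak ranked at percentiles 69.7 and 55.7. Ehf has 8 annotated starts, and the 4 nearest its 5′ end had a shared region within 1 kb. Of the 4 further inside the gene, those at 103299565 and 103283760 had a peak within 1 kb in replicate 1 alone, and those at 103290937 and 103274251 in neither replicate.

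Elf5 (chromosome 2, 103411688 to 103450989, plus strand) had shared regions at an internal promoter and no listed peak at its annotated 5′ end. With the depth unknown, the lack of a listed peak does not show that the chromatin was closed. No peak of either replicate lay within 1 kb of the starts at 103411688 and 103411713. The nearest shared region was 12328 bp away from the first of these, the nearest peak of replicate 1 was 4603 bp away and that of replicate 2 was 1828 bp away. In contrast, the starts at 103424062, 103424126 and 103424828, which serve protein-coding transcripts, each lay inside a shared region. The upstream region had signals of 36 and 50, at percentiles 35.2 and 46.0, and the downstream region had 57 and 68, at percentiles 69.7 and 70.8. Both had a hotspot in each library, at 100 in 3 of the 4 cases and at 5.70 for the upstream site in replicate 1.

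Elf5 had the weakest sites of the 4 genes by rank. Its shared regions ran from percentile 35.2 to 77.7 in replicate 1 and from 46.0 to 87.7 in replicate 2. Those of Elf3 ran from 83.0 to 98.6 and from 88.3 to 98.9, so the ranges of Elf3 and Elf5 did not overlap in either library. Spdef ran from 63.3 to 97.0 and from 49.4 to 97.0, and Ehf from 64.7 to 95 and from 55.7 to 95.5, overlapping both. The intronic site of Elf5 at 28.19 kb had signals of 55 and 89, the widest gap between replicates among its sites. The region at 34.29 kb, 898 bp upstream of a noncoding transcript's start, had 46 and 63, and the region in Cat had 65 and 87. Of the 3 peaks without a partner, replicate 1 had signals of 20 and 32 and replicate 2 of 35.

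**Figure D2:**
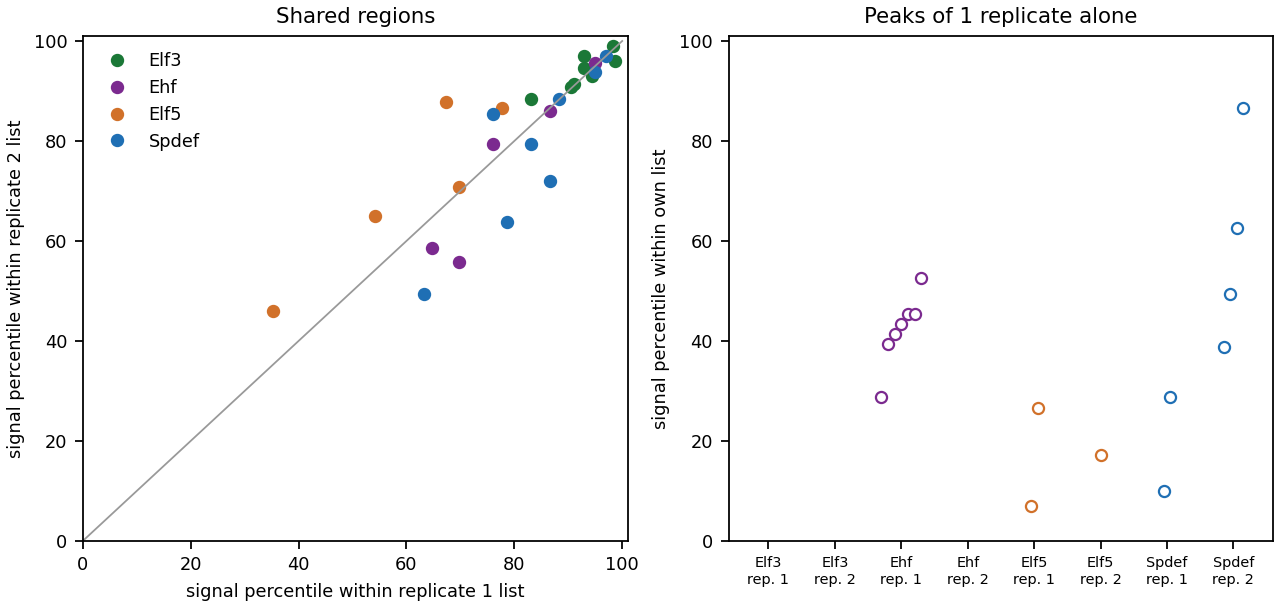
Left, signal percentile of each of the 26 shared regions within the list of replicate 1 (x) and replicate 2 (y), coloured by locus, with the line of equal rank. Right, percentile within its own list of each peak found in 1 replicate alone. The Elf3 regions start at 83.0 in replicate 1 and 88.3 in replicate 2, the lowest shared region is the upstream promoter site of Elf5, and 7 of the 16 single-replicate peaks are those of Ehf in replicate 1.

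Over the 4 loci, 70.3% of peaks in replicate 1 had a partner (26 of 37, 95% Wilson interval 54.2 to 82.5) and 84.4% in replicate 2 (27 of 32, 68.2 to 93.1). Both intervals, which cover counting error only, include the share of the whole list, 77.6 and 70.7%. The pooled share of replicate 1 joins unlike loci, with 41.7% at Ehf, 71.4% at Elf5, 80.0% at Spdef and 100% at Elf3. Shared sites ranked higher than sites of a single library. The 26 shared regions had median signals of 75 and 88, against 50 and 62 over all shared regions. The 11 peaks of replicate 1 alone had a median of 38 and the 5 of replicate 2 alone a median of 52, against 27 and 38 over all peaks without a partner. By position, with nearness to a start taken first, 13 of the 26 were centred no more than 1 kb from a start of any gene. Of the rest, 3 lay in exons, 10 in introns and 0 between genes. Some of the 13 were centred outside every annotated gene, as were the Ehf and Spdef promoter regions and both strong sites upstream of Spdef. Others of the 13 were near a start of a neighbouring gene alone. The loci were drawn around genes, and no share over all shared regions is set beside these counts, so they describe the 4 loci only.

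The edges of the loci were set by the 10 kb rule and not by the data. Just inside, the Rnpep-side region of Elf3 lay 0.31 kb from the edge (signals 72 and 90). Just outside, a region in the Cat gene lay 0.42 kb beyond the Elf5 locus (46 and 59) and 1 in Pacsin1 lay 1.56 kb beyond the Spdef locus (75 and 74). Ehf and Elf5 are neighbours that point away from each other, with 108.4 kb between their bodies. The interval also holds the noncoding genes A930006I01Rik and BC016548 and the unclassified transcript Gm37220. It held 5 shared regions, 1 of them the Ehf promoter region. The other 4 were in neither locus and lay 22.3 to 44.3 kb from Ehf and 64.1 to 86.2 kb from Elf5. The strongest, 22.3 kb upstream of Ehf (chromosome 2, 103325456 to 103325605), had signals of 98 and 97. No shared region lay in the 64.1 kb just upstream of the 5′ end of Elf5.

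Elsewhere in the ETS family, a shared promoter region was found at 18 of the 22 other ETS genes, against the 66.4% of all protein-coding genes given above. The 4 without it were Spi1, Spib and Spic, the factors of myeloid and B cells, and Fev, a factor of serotonin neurons. None of these had a promoter peak in either replicate alone. For Etv2, a factor of early blood and vessel progenitors, the shared region reached the window through its replicate 1 peak alone. By count of shared regions the family ranged from 1 at Spic to 26 at Etv6, with 16 at Elf1 and 13 at Elf2 next, over loci of 254.5, 121.3 and 107.9 kb. Its median was 5, against 6.5 over the 4 epithelial genes and 4 over all protein-coding loci. By density the median was 0.96 per 10 kb, against 1.58 over the 4. Erf, a repressor among the ETS factors, was denser than Elf3 at 4.26, and Etv4 was close to Spdef at 2.25, while Fli1 had 0.14. All 16 listed regulators and junction genes of epithelia had a shared promoter region, with a median of 9 shared regions and 1.60 per 10 kb, from 1.05 to 8.37. Elf3 and Spdef lay within that range, and Ehf and Elf5, at 0.84, lay below all 16.

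The 5′ ends of the 4 genes were poor in CpG. The ratio of observed to expected CpG in the 500 bp on either side of the annotated 5′ end was 0.35 for Elf3, 0.30 for Ehf, 0.23 for Spdef and 0.19 for Elf5. Among protein-coding genes within 0.05 of these ratios, a shared promoter region was present at 54.9% (1525 genes), 48.4% (1847), 36.7% (2480) and 30.9% (2843). The 5′ end of Elf5 itself had no listed peak within 1 kb. Its 3 internal protein-coding starts inside shared regions had ratios of 0.33 to 0.40, where 51.2 to 62.4% of genes of like CpG content had a promoter region, and the noncoding start at 103446879, within 1 kb of a shared region, had 0.24 (38.7%). In the family, Spi1 had 0.18, Spic 0.16 and Spib 0.09, and these had no promoter region, nor had Fev with 0.61. Ets1 with 0.22 and Etv2 with 0.31 had one, and the other 16 genes with one had 0.45 to 1.01. The ratio was taken at the 5′ end of each gene while a promoter region could lie at any of its starts, so these need not be the same place, as at Elf5.

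**Figure D3:**
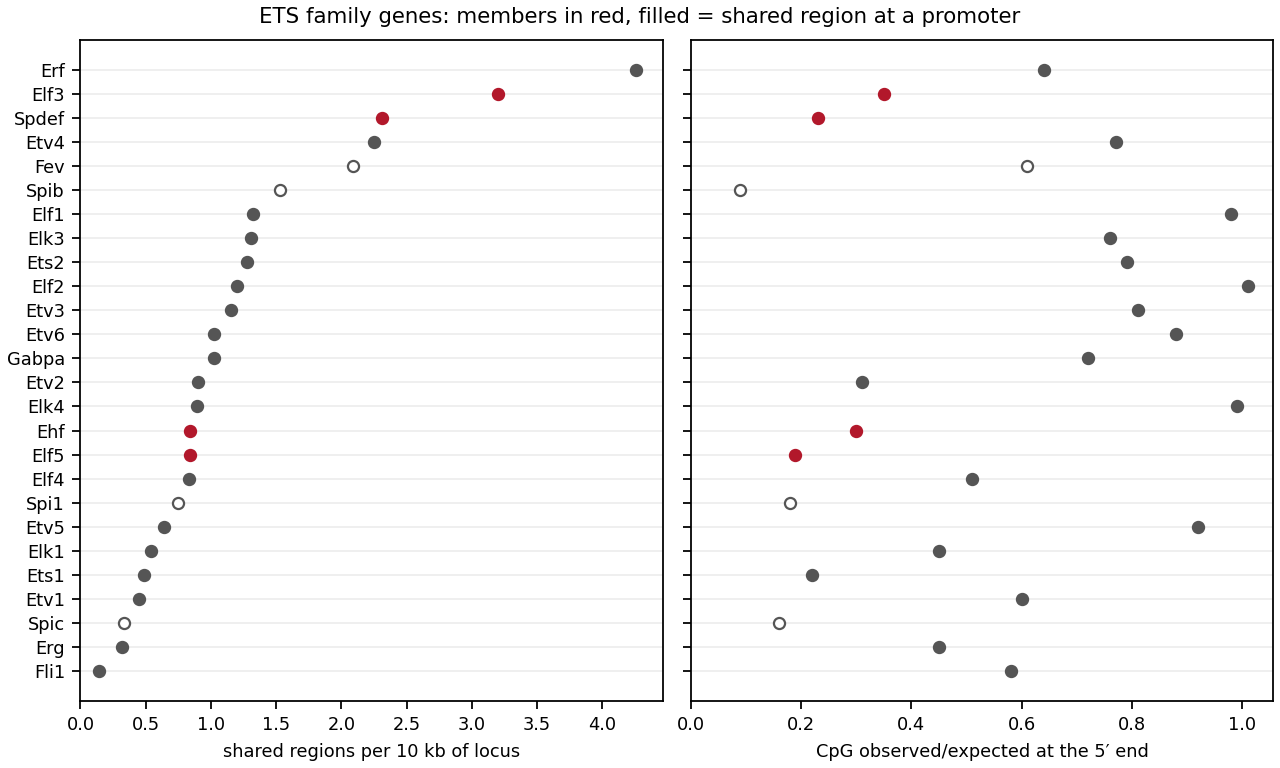
Shared regions per 10 kb of locus (left) and observed over expected CpG within 500 bp of the 5′ end (right) for the 26 ETS genes, ordered by density. Red marks the 4 epithelial genes, grey the 22 others, filled points have a shared region within 1 kb of a start and open points do not. Elf3 (3.20) and Spdef (2.31) lie near the top by density, and the 4 red points have CpG ratios of 0.19 to 0.35. The fill counts any start, and Elf5 is filled through its internal starts, not the 5′ end at which its ratio was taken.

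Short motifs were searched on both strands in the 150 bp around the centre of each of the 26 regions and of all 105606 shared regions. The ETS string CCGGAAG and the string CCGGAT, which share their first 5 bases, had no match in the 26 windows, against 3.22 and 2.41% of all windows. The ETS string AGGAAG was in 5 of 26 (19.2%), against 24.3%. One of these was the Spdef promoter shown above and another the strong intronic region of Ehf. The AP-1 string TGANTCA was in 4 windows (15.4%, against 12.1%), 3 of them in the Elf3 locus, including the upstream region printed above. The GC box GGGCGGG was in 3 windows, all of the Spdef locus (11.5%, against 10.3%). The forkhead string TGTTTGC was in 2 (7.69%, against 6.34%), 1 of them the strong intronic region of Ehf. Single windows held the forkhead string TGTTTAC, the GATA string AGATAA, the KLF string GGGTGTGG, the SOX string ACAATGG, the TEAD string GGAATGT or the CDX string TTTATNG, each against 1.77 to 8.82% of all windows. No window held the GRHL string AACCNGTT, the HNF4 string CAAAGTCCA, the HNF1 string GTTAATNAT, the CTCF string CNAGGGGGC or the CREB string TGACGTCA, each found in 0.763 to 2.46% of all windows. No string contains another, though strings can overlap in part, and a match says only that the letters are present.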

How the data were processed

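DNase-seq lists of 2 newborn stomach libraries were used, as 1 group. Per the deposited file lists, the authors called peaks and hotspots separately for each replicate from its alignments to mm10. Which aligner and caller they used is not given in the sources used here. Each deposited peak carries a signal, a whole number with no stated unit, and deposited hotspots carry a −log10 q value of at most 100. The depth is unknown, so intervals cover counting error only.

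Peaks on the 19 autosomes, X and Y were kept. Overlapping peaks of both replicates were joined into shared regions in Python 3.11.15, checked on simulated intervals and against bedtools 2.31.1. Genes were those of GENCODE M21, the first of repeated symbols being kept. Sequences came from GRCm38.p6 (NCBI RefSeq), whose coordinates are those of mm10, and 0 intervals reached beyond a chromosome end. UTR bases were left out. Named were all 4 genes, genes overlapping their loci, and of the ETS list the 3 with most shared regions and those without a promoter region; further ETS genes were named after their values were seen. Printed sequences are the promoter region nearest a start and the strongest other region, with a second Elf5 promoter region added after seeing the data; the Ehf promoter sequence and 1 listed motif are not reported here. The 4 genes, the 17 motifs and the lists were chosen with earlier results of these data known. Alternatives were the flank, the overlap, the stronger 50% of peaks, each replicate alone, hotspots and the promoter window.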

Additional observations from a re-analysis of the deposited data

How the results depend on the processing

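With only the gene body, Elf3 had 2 shared regions and Spdef 4, against 5 for Ehf, 4 for Elf5 and a median of 4 over the 22 other ETS genes, so Elf3 went from among the highest of the 4 by count to the lowest. Its gene body is the shortest of the 4, and these counts are not scaled to length. With 50 kb on either side the counts were 20 for Elf3, 9 for Ehf, 12 for Elf5 and 15 for Spdef, with a median of 13 over the 22 other ETS genes. With the stronger 50% of each list that median was 3, and 92.5% of the peaks in the 4 loci had a partner, against 76.8% over both lists as deposited. Leaving out a replicate and counting the peaks of the other alone gave 6 to 12 for Ehf, the 12 being those of replicate 1. The cause was not tested. The other 36 of 46 alternatives stayed within 1.5 times the main count, or within the interval of the share. With replicate 2 alone, Spdef (12 against 8) and the median over the 22 other ETS genes (7.5 against 5) were right at the limit of 1.5 times. That interval was taken over the peaks of both lists together, so partners were counted in each list. All 4 genes kept a promoter region under each of the 7 alternatives tried for it. Depth is unknown, which limits the calling of weak sites such as the 7 peaks of Ehf found in replicate 1 alone. No paired analysis was possible because there is 1 group.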
